A study of Bos taurus and Bos indicus x Bos taurus with 938 samples.

Results

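Open chromatin was compared between in vitro fertilised (IVF) cattle embryos caught with 5, 6 or 7 cells, in which the third cleavage was not complete, and IVF embryos with 8 cells. The members are the blastomeres, the single cells of a cleaving embryo, whose titles carry the prefix 15287 and a cell number of 5 to 8. They make up 19.7% of all blastomeres in the table. By label there are 60 blastomeres of 10 embryos with 5 to 7 cells and 110 of 14 embryos with 8 cells, and the table has columns for 58 of the first and for all but 7 of the second. The column of a blastomere was found from its number, an inference that no source states. An embryo is named here by an E and the number in the labels of its blastomeres, which the labels follow with a letter for each cell.

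Both groups share the organism label Bos indicus x Bos taurus, the fertilisation of abattoir oocytes with thawed semen, and the assay. Embryos were taken apart into single cells that were lysed and tagged separately, with the embryo of each kept on record, and the amount of Tn5 transposase depended on the batch. The labels name no batch and no embryo age for these cells, and the cell number alone sets the groups. The series also holds embryos made by somatic cell nuclear transfer and IVF embryos of other cell numbers. From the prefix 15287, 20 blastomeres of 5 embryos with 4 cells are given for orientation.

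ATAC-seq reports where DNA is accessible, because Tn5 inserts its adapters mainly where nucleosomes leave DNA free. The cells of a cleavage embryo do not divide in step, so embryos with 5, 6 or 7 cells arise between the 4-cell and the 8-cell stage. In cattle the major activation of the embryo's own genome falls around the 8-cell stage. Cleavage divisions of embryos made in vitro are known for frequent errors in chromosome segregation, which leave sister blastomeres with unequal chromosome sets.

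The 5- to 7-cell group holds 2 embryos labelled as 5-cell (E519 and E520), 6 as 6-cell (E522, E523, E524, E554, E586 and E587) and 2 as 7-cell (E620 and E622). The 8-cell embryos are E521, E525, E526, E584, E585, E610, E611, E612, E614, E615, E616, E619, E621 and 1 embryo whose label has no number. All labelled cells were in the table for 8 of the 10 and 9 of the 14 embryos. The 9 include E525, which is labelled as 8-cell but has only 6 labelled blastomeres and was not counted as complete. The table gives a 0 or a 1 for each region in each blastomere, read as closed or open. The number of open calls stands in for depth, and reads were not used here. The regions carry running numbers and no coordinates or genes, so nothing below can be tied to a gene or a sequence.

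The numbering was divided where the coverage of neighbouring stretches stopped varying together across blastomeres. The first 29 such blocks were kept, a number that was set and not left to the data. They hold 4600 to 17000 regions each. The median correlation between neighbouring stretches was 0.833 inside blocks and at most 0.193 at a boundary. Boundaries were placed at low points of this same correlation, so its low values there follow from the choice. Behind them come a mixed segment of 23900 regions, a block called P of 4160 regions and a block called Q of 670. The mixed segment is what lay between the last of the 29 blocks and P, and no correlation inside it was summarised. P and Q were divided at the lowest correlation near the end of the numbering. Cattle have as many pairs of autosomes as the number of blocks that was set, so this match is not a result. Whether a block is a chromosome was not tested. Relative coverage of a block is the number of open calls divided by the number expected from the blastomere's calls in the 29 blocks. A value of 1 is thus the expected level. Relative coverage is relative within a blastomere, so where some blocks lack calls the others lie above 1. A block is called absent where its relative coverage is under 0.1. Relative coverage was used for the 51 and 89 blastomeres with at least 2000 calls in blocks.

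A few embryos stood apart before any comparison. In the 8-cell embryo without a number, all 7 blastomeres measured had low block P (0.436 to 0.673) and high block Q (1.75 to 2.56). Its embryo means were 0.574 and 2.11, while the other 23 embryos ran from 0.643 to 1.36 for P and from 0.661 to 1.28 for Q. Embryos E519 (5-cell) and E615 (8-cell) had few calls and much of them in the mixed segment, 43.5% and 51.1%, against 12.2 to 30.3% in the other embryos. Embryos E520, E587 and E619 had very uneven blocks. No pair of blastomeres had the same calls: the highest Jaccard index, the share of regions open in both among those open in either, was 0.332 among 411 sister pairs and 0.29 among 10615 pairs of different embryos. These are pairs with at least 2000 calls each.

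Blastomeres of 5- to 7-cell embryos did not differ in open calls from those of 8-cell embryos beyond the spread between embryos. They reached from below 1000 to 75561 with a median of 11556.5, against below 1000 to 46836 with a median of 13374. Fewer than 2000 calls were found in 5 of 58 (8.62%) and in 7 blastomeres of 8-cell embryos (6.8%). Averaged over embryos, the log10 of open calls had a level of 4.08 ± 0.264 (SD, n = 10) and 4.13 ± 0.274 (SD, n = 14). That is a 0.896-fold level, with a 95% interval of 0.531 to 1.53 from inverting the permutation test (two-sided permutation test over embryos, p = 0.679, adjusted p = 0.983 over 12 measures). The 4-cell embryos of the same prefix had 3.82 ± 0.446 (SD, n = 5).

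The 5- to 7-cell embryos differed widely among themselves. The 5-cell embryos had medians of 3894 calls in E519 and 7312 in E520. In the 6-cell embryos the medians were 17512.5 in E522, 6873 in E523, 22192 in E524, 27742.5 in E554, 9812 in E586 and 11046 in E587. The 7-cell embryos were nearly equal, at 17081 in E620 and 17147 in E622. The 8-cell medians ran from 2467 in embryo E615 to 31499 in embryo E611, a range that held all of these. Over the 24 embryos, log10 calls and cell number had a Pearson's r of 0.236 (permutation p = 0.267) and a Spearman's rho of 0.188 (permutation p = 0.378). Without the 2 embryos farthest from the median cell number, the 5-cell embryos, r was -0.0515, so the relation rests on them.

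**Figure D1:**
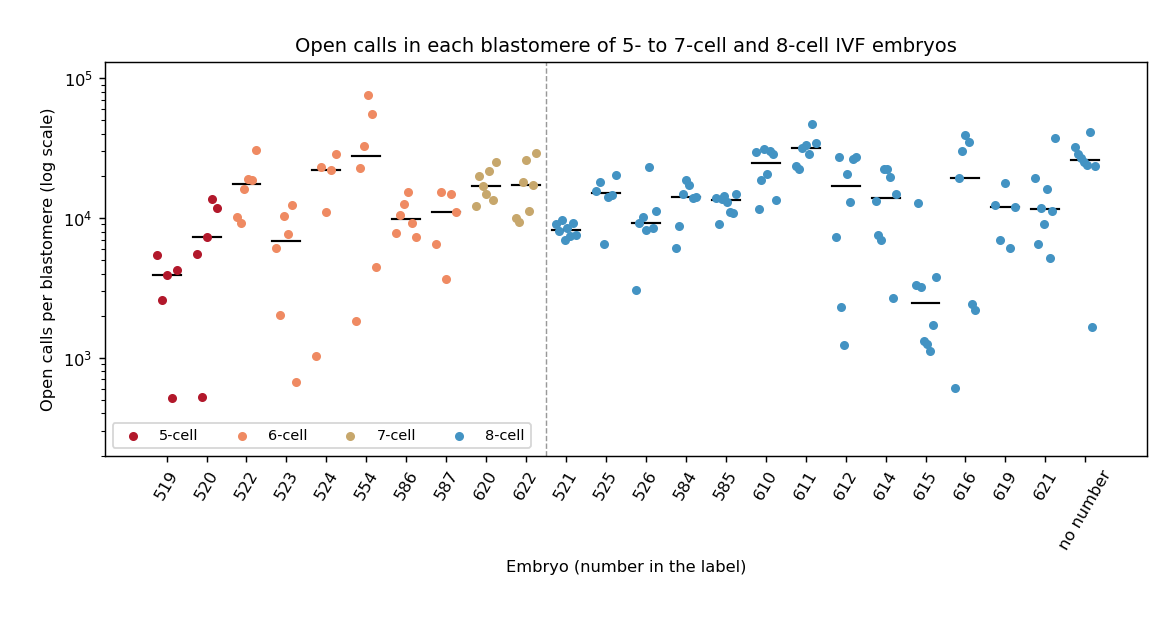
Open calls of each blastomere (log axis) by embryo, coloured by the cell number in the label, with the median of each embryo as a line. Embryos E519 and E615 lie lowest, with medians of 3894 and 2467, and single blastomeres of E519, E520, E523 and E616 fall below 1000 calls.

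Sisters of one embryo differed widely in calls. Among 6-cell embryos the highest count was 41.2 times the lowest in E554 (1835 to 75561), 27.9 times in E524, 18.4 times in E523, 4.22 times in E587, 3.35 times in E522 and 2.12 times in E586. In the 5-cell embryos it was 10.4 times in E519 and 26.1 times in E520. In the 7-cell embryos it was 2.07 times in E620 and 3.13 times in E622. The lowest 3 ratios of the 10 embryos were thus those of E620, E586 and E622. The SD of log10 calls within an embryo was 0.361 ± 0.205 (SD, n = 10) and 0.275 ± 0.189 (SD, n = 14). The difference of 0.0863 did not pass (95% interval -0.0827 to 0.253, permutation p = 0.295, adjusted p = 0.983).

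Whole blocks were absent in blastomeres of both groups. In 5- to 7-cell embryos 21 of 51 blastomeres lacked at least 1 block (41.2%, exact 95% interval 27.6 to 55.8), and these came from 5 of 10 embryos. In 8-cell embryos it was 22 of 89 (24.7%, 16.2 to 35), from 4 of 14 embryos. These intervals cover counting error only and take blastomeres as independent, although sisters share an embryo. Per embryo the share was 36.3% ± 40.3 (SD, n = 10) against 25.6% ± 42.4 (SD, n = 14). The difference of 10.7 percentage points has a 95% interval of -25 to 46.4 and did not pass (permutation p = 0.533, adjusted p = 0.983). The 4-cell embryos had 25% ± 25 (SD, n = 5).

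The counts depend on the threshold, since values run on between 0.1 and 0.2. At a threshold of 0.2 the counts became 26 of 51 blastomeres in 6 embryos and 24 of 89 in 4 embryos. The difference in the share per embryo was 19.8 percentage points at a threshold of 0.2 (permutation p = 0.314, adjusted p = 0.983) and 0.0476 at 0.05 (permutation p = 1, adjusted p = 1). Of all 1479 block values in 5- to 7-cell blastomeres, 61 (4.12%) were under 0.1 and 14.3% were 0.5 or less. In 8-cell blastomeres it was 82 (3.18%) and 6.12% of 2581. At the other end, 27 (1.83%) and 15 (0.581%) of values were 3 or more. Between 0.8 and 1.25 lay 55.2% and 67.5% of values. These shares were not tested, since values of one embryo are not independent.

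**Figure D2:**
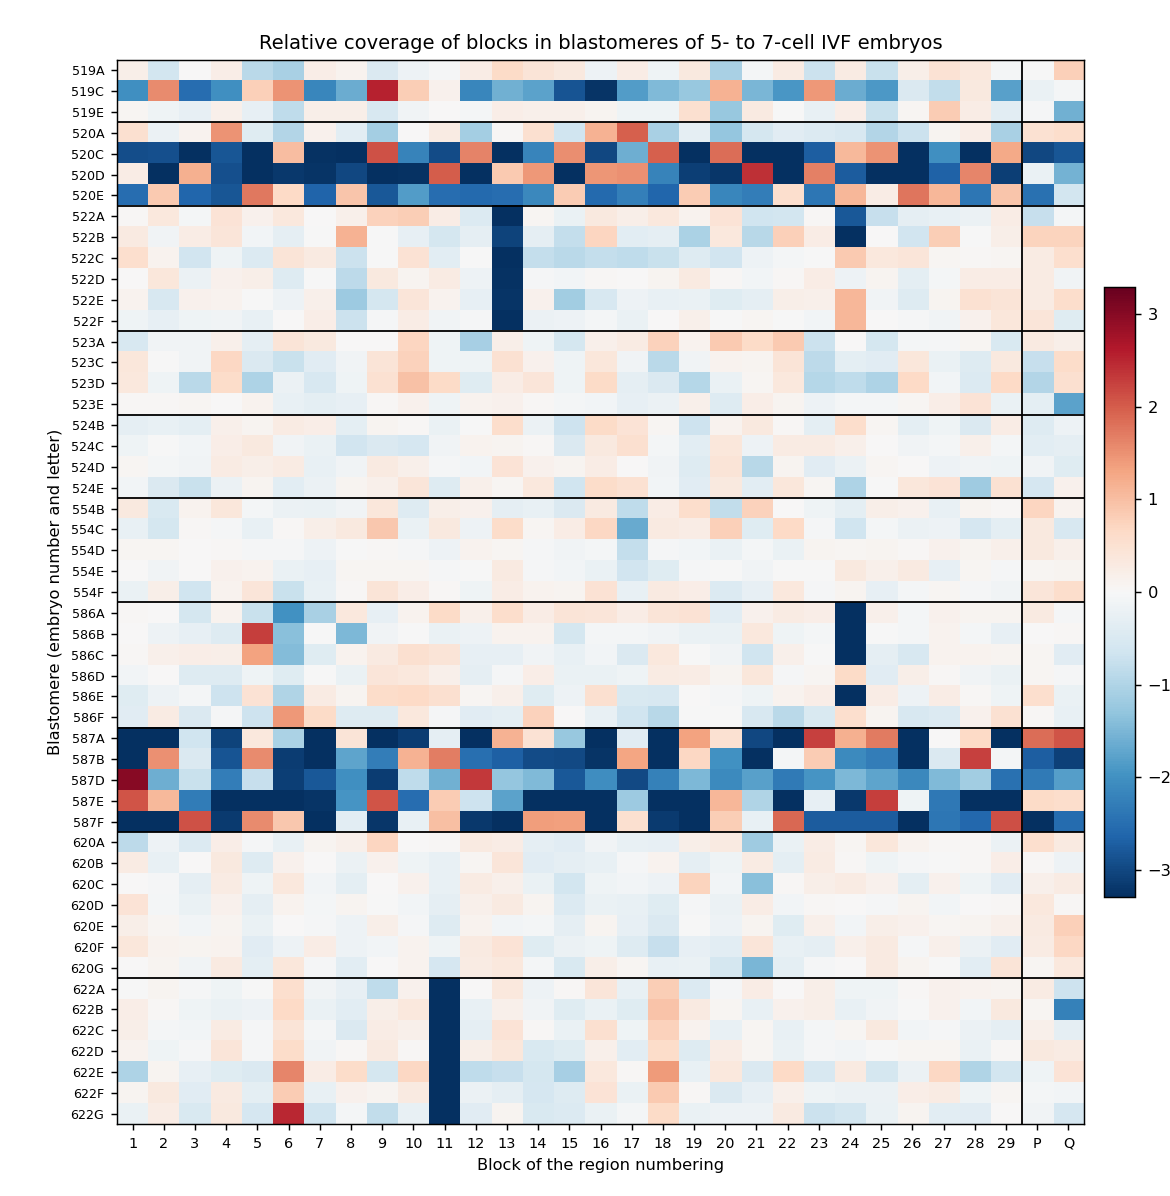
log2 relative coverage (floored at 0.1) of the 29 blocks and of blocks P and Q (columns) in the 51 blastomeres of 5- to 7-cell embryos with at least 2000 calls in blocks (rows, black lines between embryos). Embryo E622 shows block 11 absent in all 7 rows, embryo E522 block 13 at 0.12 or less in all 6, embryo E586 block 24 absent in 4 of 6, and embryos E520 and E587 a patchwork that differs between sisters.

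Embryo E622, with 7 cells, lacked one block in every cell. Block 11 was at 0.0902 in A, 0.0442 in B, 0.0459 in C, 0.0465 in D, 0.0792 in E, 0.0557 in F and 0.0797 in G, with 3383 calls expected over the 7 cells. Blocks 6 and 18 were at 1.3 or more in all 7. Block 6 was at 1.46 in A, 1.58 in B, 1.35 in C, 1.52 in D, 3.05 in E, 1.79 in F and 5.59 in G. Block 18 ran from 1.51 in D to 2.65 in E. Over all 29 blocks the sisters were alike, with a correlation of log2 block coverage of 0.685 to 0.927 in the 21 pairs, block 11 included.

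Embryo E522, with 6 cells, had block 13 at 0.12 or less in every cell. The values were 0.0899 in A, 0.12 in B, 0.0691 in C, 0.105 in D, 0.107 in E and 0.0687 in F, so only A, C and F count as absent at 0.1. Block 24 was unequal between its sisters. It was low in A and B (0.143 and 0.0963), near expected in D (0.896), and high in C, E and F (1.83, 2.14 and 2.15). The 15 pairs of sisters had correlations of 0.248 to 0.895.

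Embryo E586, with 6 cells, had 2 ranges of values at block 24. Blastomeres A, B, C and E had 0.0714, 0.0483, 0.0896 and 0.0688 of expected, 95 calls where 1347 were expected. Blastomeres D and F had 1.54 and 1.47. Block 6 was also low in A, B, C and E (0.248, 0.386, 0.372 and 0.505), at 0.753 in D and at 2.68 in F. Block 5 was at 4.83 in B and 2.5 in C. The 6 pairs within A, B, C and E had correlations of 0.546 to 0.844, and the 8 pairs between them and D or F had -0.496 to -0.164. The grouping follows block 24, which enters the correlation, so this is a description.

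Embryo E620, with 7 cells, had no absent block, and its sisters were unequal at block 21. The block was at 0.442, 0.385 and 0.354 in A, C and G and at 1.2, 1.18, 1.06 and 1.32 in B, D, E and F. Its unevenness, the SD over blocks of log2 relative coverage, was 0.193 to 0.39, and its highest value among the 29 blocks was 1.66 at block 19 in C. In embryo E554, with 6 cells, block 17 was low in all 5 blastomeres measured (0.563 in B, 0.316 in C, 0.582 in D, 0.648 in E and 0.842 in F). Blastomeres D and E of embryo E554 had the most calls of the group, and the unevenness of D, 0.175, was the lowest. Embryos E523 and E524 had no block under 0.2. In embryo E523, C and D had like profiles (r = 0.775 over the 29 blocks), with block 10 at 1.7 and 1.95 and block 23 at 0.545 and 0.517.

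In embryo E587, with 6 labelled cells of which 5 were in the table, the absent blocks differed between sisters. Absent blocks numbered 10 in A, 5 in B, none in D, 10 in E and 7 in F, and covered 18 of the 29 blocks. Some blocks absent in some sisters lay far above expected in others. Block 1 was at 0.025, 0.0972 and 0.0603 in A, B and F, at 4.23 in E and at 8.01 in D. Block 29 was at 0.0594 and 0.051 in A and E and at 4.37 in F. Block 28, absent in none of them, was at 4.79 in B and at 0.102 in E. In D, blocks 1 and 12 (8.01 and 5.03) stood above everything else, and the next was block 3 at 0.604. Block 7 was low in all 5, at 0.056 to 0.143. The embryo's mean unevenness was 1.88, and that of its mean profile, averaged over sisters, was 1.29.

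Embryo E520, with 5 cells, also had blocks far below and above expected in C, D and E. Blastomeres C and D lacked 7 blocks each, 11 different blocks between them, while A and E lacked none at 0.1. Block 9 was at 4.3 in C and at 0.0776 in D, and block 21 at 5.27 in D and at 0.102 in C. Block 26 was absent in C and D and at 3.38 in E. In C, D and E, 9, 9 and 10 blocks were at 1.5 or higher, against 3 in A. Averaging over sisters brought unevenness from 1.73 to 0.524. In embryo E519, also with 5 cells, 1 of the 3 blastomeres measured, C, was uneven (1.54), with block 9 at 5.84, block 2 at 2.97 and block 16 at 0.107. Its sisters A and E had an unevenness of 0.473 and 0.415 and like profiles (r = 0.822).

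The blocks absent in 5- to 7-cell blastomeres were many. Of the 29 blocks, 24 were absent in at least 1 blastomere, and 26 in the 8-cell group. In the 5- to 7-cell group 8 of them were absent in more than 1 of the 5 embryos with an absent block. Blocks 5, 9, 12, 15, 22 and 26 were so in E520 and E587, and blocks 13 and 24 in other combinations. Block 13 was absent in 3 of 10 embryos (E520, E522 and E587) and in 3 of 14 (E612, E619 and E621). Block 24 was absent in 5 blastomeres of 2 embryos against 1 blastomere of 1 embryo. Block 11 was absent in 7 blastomeres, all of embryo E622, against 7 of 2 embryos (E619 and E621). Blocks 10 and 27 were absent in no blastomere of either group. In the 8-cell group the uneven embryos were E526 (block 3), E612 (blocks 13 and 29), E619 (26 different blocks) and E621 (blocks 11, 13, 19, 28 and 29). A block was absent in every measured sister in 1 embryo of each group, E622 and E612. At a threshold of 0.2 there were 3 in each group, E522, E587 and E622, and E526, E612 and E619. Where a block was absent in some sisters only, it was above 1 in 39 of 98 values of the others (39.8%), and in 8-cell embryos in 49 values (46.2%).

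Blastomeres that lacked a block had a lower median of calls in both groups, with ranges that overlapped. In 5- to 7-cell embryos, blastomeres with an absent block had 6506 to 30849 calls with a median of 11220, and those without had 3651 to 75561 with a median of 14213.5. The corresponding medians in 8-cell embryos were 12184.5 and 14788. With every blastomere thinned to 2000 calls in blocks, the difference in the share with an absent block was 13 percentage points (permutation p = 0.43, adjusted p = 0.983).

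The number and size of block deviations did not separate the groups. Absent blocks per blastomere averaged 1.22 ± 2.11 (SD, n = 10) and 1.02 ± 2.44 (SD, n = 14), with a 95% interval of the difference of -1.73 to 2.04 (permutation p = 0.85, adjusted p = 0.983). Blocks at 1.5 or more per blastomere averaged 2.77 ± 2.43 and 1.56 ± 2 (SD, n = 10 and 14), with an interval of -0.645 to 3.04 (permutation p = 0.201, adjusted p = 0.983). Unevenness averaged 0.799 ± 0.567 and 0.579 ± 0.511 (SD, n = 10 and 14), with an interval of -0.239 to 0.666 (permutation p = 0.336, adjusted p = 0.983). The highest unevenness was in E587 and E520 (1.88 and 1.73) in the first group and in E619 (2.07) in the second. The embryo numbers run in 3 ranges that hold both groups, E519 to E526 (5 and 3 embryos), E584 to E587 (2 and 2) and E610 to E622 (2 and 8). No label calls these batches. Compared within ranges, the share with an absent block differed by 20.1 percentage points (permutation p = 0.353), log10 calls by -0.01 (p = 0.931) and unevenness by 0.265 (p = 0.336), each with an adjusted p of 0.983. The size of these differences rested on single embryos. Without E619 absent blocks differed by 0.816 (permutation p = 0.243), unevenness by 0.334 (p = 0.0793) and blocks at 1.5 or more by 1.67 (p = 0.0264), with adjusted p of 0.983, 0.951 and 0.317. For every alternative, a measure's p was adjusted beside the main p of the other measures, not beside their p in that alternative. Without E587 absent blocks differed by -0.373 and unevenness by 0.0995, and without E520 by -0.0505 and 0.116 (permutation p of 0.601 to 0.952, adjusted p = 0.983 for each). Blocks at 1.5 or more differed by 0.656 without E520 (permutation p = 0.45, adjusted p = 0.983). The share with an absent block differed by 16.5 percentage points without E619 and by 5.89 without E587 (permutation p = 0.337 and 0.753, adjusted p = 0.983).

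**Figure D3:**
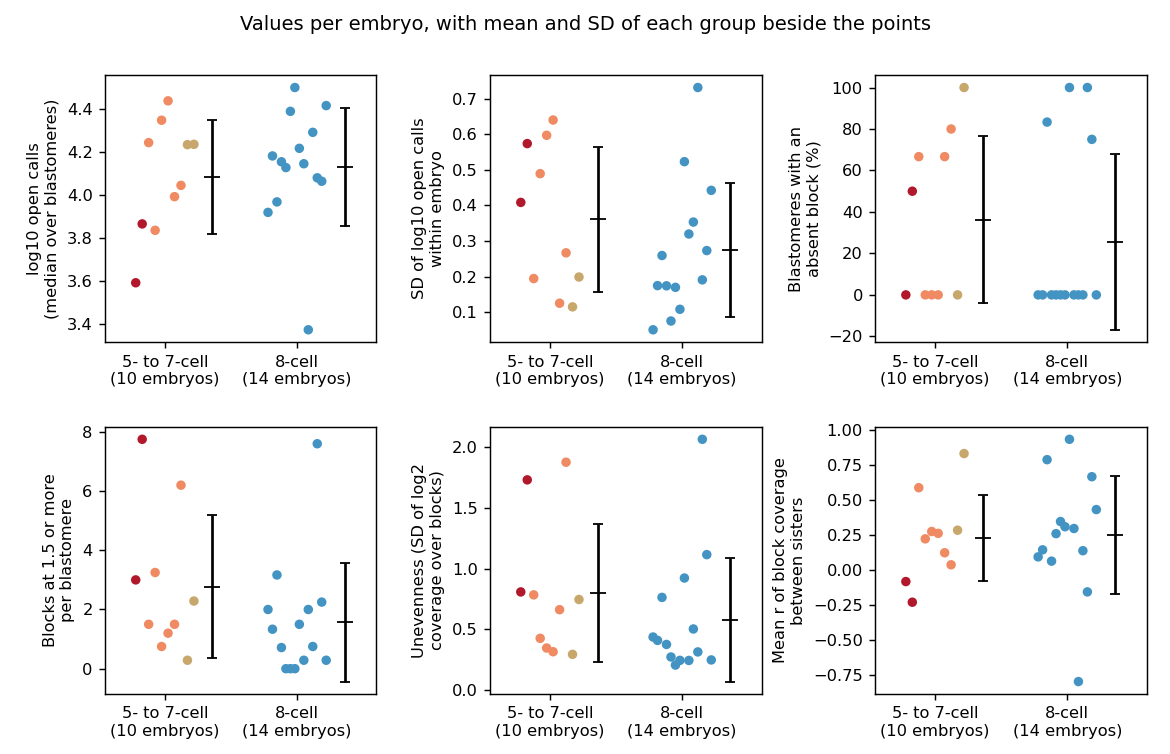
Each point is 1 embryo, coloured by cell number (dark red 5, orange 6, tan 7, blue 8), with the group mean and SD drawn beside the points. In all 6 panels the 10 and 14 embryos overlap over most of their range, and means such as 36.3% and 25.6% of blastomeres with an absent block lie within 1 SD of each other.

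How alike sisters were over the blocks varied more between embryos than between the groups. Per embryo, sisters correlated in log2 block coverage at a mean r of 0.231 ± 0.309 (SD, n = 10) and 0.251 ± 0.424 (SD, n = 14), with an interval of the difference of -0.342 to 0.305 (permutation p = 0.901, adjusted p = 0.983). The 8-cell embryo E615 enters with 1 pair, at -0.799, since only 2 of its blastomeres had block values. Without E615 the difference was -0.101 instead of -0.0202 (permutation p = 0.445, adjusted p = 0.983). Of the sister pairs in 5- to 7-cell embryos 26 (23%) had a negative r and 44 (38.9%) one above 0.5. In 8-cell embryos it was 49 (19%) and 92 (35.7%). The 5-cell embryos had medians of -0.439 (E519, 3 pairs) and -0.392 (E520, 6 pairs). The 6-cell medians were 0.694 in E522, 0.199 in E523, 0.27 in E524, 0.237 in E554, -0.164 in E586 and -0.004 in E587. The 7-cell medians were 0.211 in E620 and 0.848 in E622. The 4-cell embryos had a mean of -0.178 ± 0.352 (SD, n = 5).

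**Figure D4:**
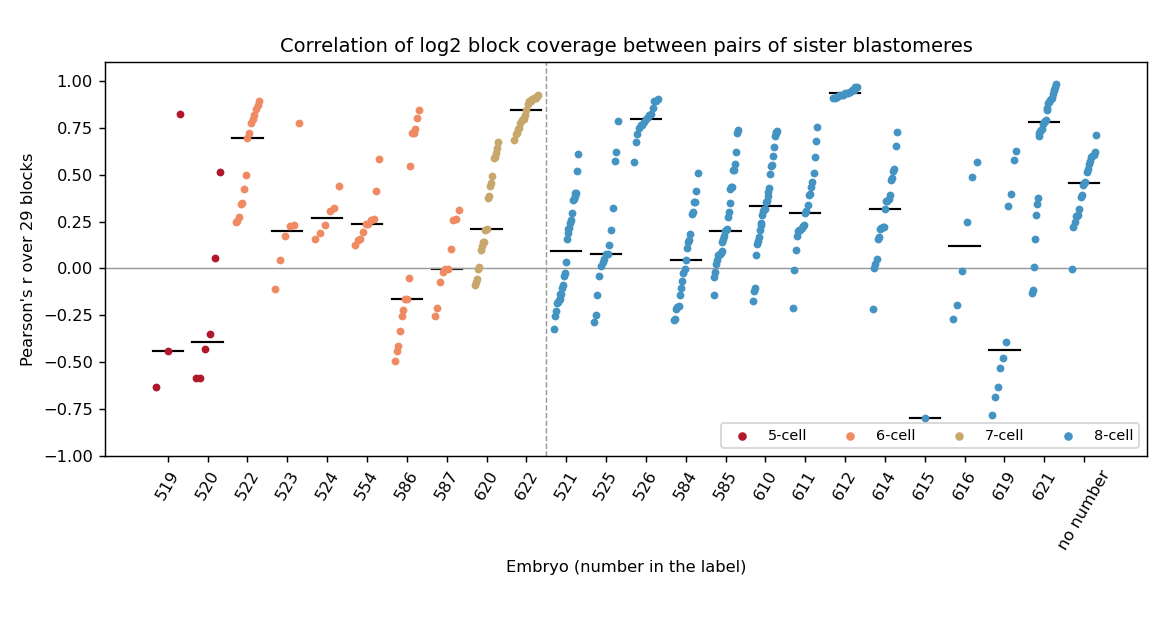
Pearson's r of log2 block coverage over the 29 blocks for every pair of sister blastomeres, by embryo, with the median as a line. Embryo E622 has all 21 pairs at 0.685 or more, embryo E586 splits into pairs above 0.5 and pairs below 0, and the 5-cell embryos have medians of -0.439 and -0.392.

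At the level of single regions, the mean share of open regions in common, taken over pairs, was higher in sisters than in cells of different embryos. This held in both groups but not for every embryo, and the difference was not tested. With each blastomere thinned to 1000 calls, the mean Jaccard index was 0.0115 for sister pairs and 0.00962 for pairs of different 5- to 7-cell embryos. In 8-cell embryos it was 0.0143 and 0.00976. At 5000 calls the values were 0.0507 and 0.042 in the first group and 0.0475 and 0.0363 in the second. Per embryo, at 1000 calls, the index was 0.0134 ± 0.00938 (SD, n = 10) and 0.0135 ± 0.0139 (SD, n = 14), with an interval of the difference of -0.0101 to 0.0091 (permutation p = 0.983, adjusted p = 0.983). The medians over embryos were 0.0105 and 0.0104. The lowest embryos, E554 at 0.00673 and the unnumbered one at 0.00545, lay below the means for pairs of different embryos. The highest values of the 2 groups, 0.0385 in embryo E519 and 0.0605 in embryo E615, came with the highest shares of calls in the mixed segment. The part of that segment in the index was not tested. Both embryos enter the means over pairs at 1000 calls, which were not recomputed without them.

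The make-up of the open calls did not differ beyond the spread between embryos. Commonly open regions are the 8077 regions open in at least 25% of deep blastomeres of the other IVF prefix, 38.1% of them in the mixed segment. They took 29.1% ± 9.03 (SD, n = 10) and 26.7% ± 9.01 (SD, n = 14) of calls (interval -5.3 to 9.95, permutation p = 0.535, adjusted p = 0.983). The mixed segment took 23.6% ± 8.32 and 22.9% ± 9.74 of calls (SD, n = 10 and 14, interval -7.17 to 8.29, permutation p = 0.868, adjusted p = 0.983). Blastomere D of embryo E554, the deepest with 75561 calls, had 10.6% of them there, and blastomere D of embryo E519, the shallowest of the group, had 48.4%. The 5-cell embryos had 43.5% and 29.3%, and the 7-cell embryos 15.6% and 21%.

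Blocks P and Q were near expected in both groups. Block P was at 1.02 ± 0.217 (SD, n = 10) and 1.02 ± 0.208 (SD, n = 14), with an interval of -0.191 to 0.174 (permutation p = 0.921, adjusted p = 0.983). Block Q was at 1.02 ± 0.202 and 0.998 ± 0.349 (SD, n = 10 and 14), with an interval of -0.221 to 0.256 (permutation p = 0.872, adjusted p = 0.983). The lowest of the 10 embryos for both was E520, at 0.643 and 0.661, and the highest were E554 for P (1.3) and E620 for Q (1.28). Without the embryo that has no number, P differed by -0.0434 and Q by 0.112 (permutation p = 0.595 and 0.133, adjusted p = 0.983 for both). Single blastomeres of E587 ran from 0.103 in F to 3.57 in A for P and from 0.118 in B to 4.24 in A for Q.

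Of 31 blocks tested over embryos, 0 passed (percent called 0), and 2 had an unadjusted p under 0.05 (6.45%). Block 20 had the lowest p. It ran from 0.899 in embryo E620 over a median of 1.03 to 1.24 in embryo E524 in the 5- to 7-cell group. In the 8-cell group it ran from 0.782 in E610 over a median of 0.878 to 1.34 in E619, with the next highest at 0.973. The means were 1.05 ± 0.108 (SD, n = 10) and 0.908 ± 0.137 (SD, n = 14, permutation p = 0.0135, adjusted p = 0.417 over 31 blocks). Leaving out embryo E619, which had the highest unevenness of the 24, a step chosen after seeing the data, gave 1.05 against 0.874 ± 0.0579 (SD, n = 13) and an adjusted permutation p of 0.00155. Leaving out any other single embryo gave 0 called blocks, and within ranges of embryo numbers the unadjusted permutation p of block 20 was 0.0682. Block 9 was at 1.24 ± 0.433 and 1.03 ± 0.102 (SD, n = 10 and 14, permutation p = 0.0369, adjusted p = 0.517), with the highest value, 2.42, in embryo E519.

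No single region passed a test between the groups. Of all regions, 220311 were open in at least 1 blastomere of 5- to 7-cell embryos and 261761 in at least 1 of 8-cell embryos, which have more blastomeres. The 198346 regions open in both are 90% of the first list and 75.8% of the second. Regions open in every embryo numbered 2240 of 10 embryos and 2159 of 14, and 1839 were in both lists, 82.1% and 85.2%. Of those 1839, 88.8% lay in the mixed segment, which holds 7.89% of all regions.

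Among 194894 regions open in at least 10% of embryos, 0 were open more often and 0 less often in 5- to 7-cell embryos (percent called 0). The test was a quasi-Poisson score test per embryo with limma-moderated dispersion and an exact bound, with an adjusted p under 0.05 as the threshold. At an unadjusted p under 0.05 there were 4251 (2.18%), of which 2795 were higher and 1456 lower in 5- to 7-cell embryos. This split cannot show a tendency, because the exact bound does not treat both directions equally. With fewer blastomeres in the 5- to 7-cell group, fewer calls give a small p if all lie in that group. The excess of higher regions lay mostly in those open in 10 to 25% of embryos, where most of 1308 were higher. In those open in 25 to 50% of embryos, 1256 of 2256 were higher and the rest lower. The score test without the bound also called 0, with 11126 (5.71%) at an unadjusted p under 0.05, and limma on log2 ratios called 0, with 8473 (4.35%). On simulated data for this comparison, with 189780 regions tested, the test found 5 of 25 regions made 8-fold higher and 1 of 25 made 4-fold higher, drawn from any tested region. Of those made 4-fold and 8-fold lower that still passed the filter, it found 0 of 19 and 1 of 20. Among regions open in at least 50% of embryos it found 7 of 25 made 8-fold higher and 1 of 25 made 4-fold higher. Of those made 4-fold or 8-fold lower it found 0 of 25 each. The folds were set on a region's rate in the model, not on its share of open calls. Block coverage varied between simulated embryos but not between sisters. Most changes of these sizes at single regions would thus have been missed.

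The regions with the smallest p are given as values only, since each had an adjusted p of 1. Their counting intervals, in both directions, take sisters as independent. As the regions were picked by p, these intervals cannot show a difference between the groups. Region V10651 of block 1 was open in 13 of 58 blastomeres (22.4%), from 5 of 10 embryos, and in 1 blastomere of 8-cell embryos (0.971%). The ratio between the groups of observed over expected calls was 24.8, or 4.63 on the log2 scale (unadjusted p = 4.2e-05, limma-moderated score test). On the log2 scale the region's exact counting interval was 1.90 to 10.04. Of its 13 calls, 9 came from the 7-cell embryos E620 and E622. Region V189758 of block 23 was spread more widely, in 25 blastomeres of 9 of 10 embryos (43.1%), and in 11 blastomeres (10.7%) from 8 of 14. Its ratio was 4.44, or 2.15 on the log2 scale, with an exact counting interval of the ratio itself of 2.11 to 10. Region V61514 of block 6 was open in 9 of 58 from 4 embryos and in 0 blastomeres of 8-cell embryos, which allows a share of up to 2.91% by counting error alone, with sisters taken as independent. The exact counting interval of its ratio starts at 3.73 and has no upper limit.

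In the other direction, region V94860 of block 10 was open in 2 of 58 blastomeres (3.45%) and in 39 blastomeres (37.9%) from 12 of 14 embryos of 8 cells. The ratio was 0.1, with an exact counting interval of 0.0118 to 0.388. Its 2 calls came from embryos E554 and E586, and among 8-cell embryos E521 and E615 had none. Region V155481 of block 17 was open in 1 of 58 and in 29 blastomeres of 8-cell embryos (28.2%), at a ratio of 0.0671 (0.00164 to 0.404). Region V54613 of block 5 was open in 1 of 58 and in 26 of 8-cell embryos (25.2%), at 0.0746 (0.00182 to 0.454). In both, the single call was in embryo E554, the one with the highest median of calls among the 10.

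The ratios of all tested regions were centred near 0. The median log2 ratio over the 175339 regions with calls in both groups was -0.07, with quartiles of -0.67 and 0.91. By how often a region was open, the medians were -0.089 at 10 to 25% of embryos, -0.081 at 25 to 50%, -0.0446 at 50 to 75% and 0.0709 from 75% up. Among 8075 commonly open regions tested, 3% had an unadjusted p under 0.05, of which 34 were lower and the rest higher in 5- to 7-cell embryos, with a median log2 ratio of 0.104. The sign of such medians depends on the scaling. Over all tested regions the median moved to -0.25 with depth taken from the commonly open regions, to 0.50 with 6-cell embryos only, and to 0.28 without embryo E554.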

How the data were processed

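Single-blastomere ATAC-seq was analysed from the table the authors deposited, whose values are all 0 or 1 and were read as closed and open calls, not as read counts. The tools Bowtie2 2.2.6, bedtools and FastQC 0.10.1 are named, per the submitters' processing notes, with no settings. Neither the rule for an open call nor the genome build is given in the sources used here. The table has 302830 regions and 819 columns, which were tied to titles by number. The members are 161 columns, 58 of 5- to 7-cell and 103 of 8-cell embryos.

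Open calls were modelled as 1 minus the exponential of minus a blastomere factor times a region factor (12 iterations), fitted to 384 IVF blastomeres for blocks and to the 161 members for regions. The embryo was the replicate. Measures per embryo were compared by two-sided permutation tests (100000 resamples) with Benjamini-Hochberg adjustment over 12 measures or 31 blocks. In an alternative setting, the p of each measure was adjusted beside the main p of the other measures. Intervals come from inverting the test (20000 resamples), and binomial intervals are exact (Clopper-Pearson). Regions open in at least 10% of embryos were tested by a quasi-Poisson score test on observed and expected calls, with dispersion moderated by limma 3.58.1 (R 4.3.3) and p not below an exact binomial p. Python 3.11.15, numpy 2.4.6 and scipy 1.17.1 were used, and tests were tested on simulated data. Jaccard indices used thinned blastomeres.

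Where no region passed in a direction, the 3 with the smallest p were named. Blocks were named if absent in 5- to 7-cell blastomeres, besides P and Q, and embryos by label number. Block 20 and block 9 were singled out after their values were seen, as were several blocks and blastomeres with high values. Members and lists were chosen with earlier results of these data known. Nothing says that embryos came from separate fertilisations, so p-values measure the spread between these embryos. Because the authors deposited only calls, an absent call can mean few fragments as well as closed chromatin, and the depth in reads is unknown.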

Additional observations from a re-analysis of the deposited data

Results flagged for a closer look

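Of 24 sets of embryo values checked for a single distant value (12 measures, in the 10 embryos of 5 to 7 cells and in the 6 with 6 cells), 4 held one, where chance flags about 1 in 20. The 6 embryos are among the 10 and several measures go together, so the 4 cannot be set against that rate. The 8-cell embryos were not checked. They too held high values, such as a Jaccard index of 0.0605 in E615 and 9 absent blocks per blastomere in E619. Embryo E519, with 5 cells, had a Jaccard index within the embryo of 0.0385, far from the next highest of 0.0179. The same embryo had 43.5% of its calls in the mixed segment, against a next highest of 29.3%. Embryo E587 had 6.4 absent blocks per blastomere among the 6-cell embryos, where the next highest had 0.667. Its unevenness of 1.88 also lay far from the next highest of 0.784. Embryo E587 carries a number that recurs under the other IVF prefix.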

How the results depend on the processing

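None of the 12 measures per embryo passed under any alternative computed, with adjusted permutation p of 0.317 or more. Here each alternative p was adjusted beside the main p of the other measures. The sign of the difference (5- to 7-cell minus 8-cell) changed in 37 of the alternative values. For log10 open calls it became 0.0199 with 6-cell embryos only, 0.00702 without embryo E519 and 0.041 without E519 and E520. For absent blocks per blastomere it became -0.373 without E587, -0.0505 without E520, -0.115 without E520, E587 and E619, and -0.041 at a threshold of 0.05. For the correlation between sisters it became 5.94e-05 with 6-cell embryos only, 0.00142 without E587, 0.0252 within ranges of embryo numbers, 0.00447 with thinning, 0.0312 without E520, 0.0305 without E520, E587 and E619, 0.0148 without E519 and 0.0769 without E519 and E520. For the Jaccard index it became 0.000197 without E587, 0.000636 within ranges, 0.000404 with medians, 0.00404 at 5000 calls, 1.03e-05 without E520, 7.63e-05 without E520, E587 and E619, and 0.0035 without E615. For commonly open regions it became -0.658 without E519 and E520. For the mixed segment it became -1.85 with 6-cell embryos only, -0.157 without the unnumbered embryo, -1.55 without E519 and -2.54 without E519 and E520. For block P it became 0.0291 with 6-cell embryos only, 0.00706 within ranges, 0.0263 at a minimum of 1000 block calls, 0.0326 without E520, 0.0168 without E520, E587 and E619, and 0.047 without E519 and E520. For block Q it became -0.00804 with complete embryos, -0.0467 with medians, -0.054 at a minimum of 1000 block calls and -0.0681 with thinning. The trend with cell number became -0.0515 without the 5-cell embryos. The causes were not tested.

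The number of called blocks was 0 to 1 when each of the 24 embryos was left out in turn, with the 1 (block 20) only without embryo E619, and it was 1 without E520, E587 and E619. No region was called in either direction under any of the 13 alternatives, with 0.892% to 5.71% at an unadjusted p under 0.05. Settings that leave out E519, E520, E554, E615, E619 or several embryos, the alternatives for single blocks, and the region tests scaled by block coverage or without the unnumbered embryo were chosen after seeing the data. No paired analysis was possible because no embryo number belongs to both groups. Depth in reads is unknown, and 7 and 14 blastomeres had too few calls for block values. In simulated data the test of single regions missed most changes, even those of 8-fold.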
